A study of Homo sapiens with 40 samples.

Results

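The 10 genes described here make, break down, carry or sense retinoic acid, and were chosen by name: ALDH1A2, ALDH1A3, DHRS3, CYP26A1, CYP26B1, CRABP1, CRABP2, RARA, RARB and RARG. All 10 were found among the 60651 genes of the count tables, the 16742 genes of each germ layer table and the 23549 genes of the H9 table. The study compared human embryonic stem cells that lacked UTX (encoded by KDM6A), its paralog UTY, or both, and its title asks whether the paralogs can stand in for each other. Undifferentiated cells of the SEES3 line were DKO (both genes knocked out), UTXKO or WT, with UTYKO cells set against libraries of their own named UTYKO_ctrl. SEES3 cultures whose titles name a germ layer, Endo (endoderm), Meso (mesoderm) and Ecto (ectoderm), were DKO, XKO (UTX), YKO (UTY) or WT. Cells of the H9 line were UTXKO, in sets named 3 and 4, or WT. There were 40 polyA RNA libraries in 20 groups of 2. The labels give no age of culture, no agent and no way in which the alleles were disrupted. They call every library pluripotent stem cells, so the layer names rest on the titles, and they do not say whether the libraries of a group came from separate cultures or clones.

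Retinoic acid is made from vitamin A (retinol) through retinaldehyde, which aldehyde dehydrogenases such as ALDH1A2 and ALDH1A3 oxidise, while DHRS3 turns retinaldehyde back into retinol. CYP26 enzymes break retinoic acid down, CRABP proteins carry it through the cytoplasm, and the nuclear receptors RARA, RARB and RARG bind it and switch genes on or off as partners of RXR proteins. In the early embryo the mesoderm is a main source of retinoic acid, which patterns the hindbrain and trunk, and CYP26A1 keeps it away from the anterior and posterior ends.

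CYP26A1 and RARB are textbook direct targets of retinoic acid, and their promoters are shown because each holds the motif through which receptors are known to act, a direct repeat of a hexamer with 5 bases between its copies (DR5). Both are RefSeq sequences of GRCh38.p14, from 250 bases before to 50 bases after a transcription start, 5′ to 3′ on the gene's strand, with the hexamers of the repeat in capitals. The first lies at chr3:25428013-25428312 on the plus strand and the second at chr10:93073643-93073942 on the plus strand.
RARB: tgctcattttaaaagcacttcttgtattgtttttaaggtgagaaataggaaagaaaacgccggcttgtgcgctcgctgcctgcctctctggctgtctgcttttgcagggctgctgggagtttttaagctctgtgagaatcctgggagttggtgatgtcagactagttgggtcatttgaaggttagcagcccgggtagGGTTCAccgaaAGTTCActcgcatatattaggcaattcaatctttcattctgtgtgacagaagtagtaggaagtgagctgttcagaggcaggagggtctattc
CYP26A1: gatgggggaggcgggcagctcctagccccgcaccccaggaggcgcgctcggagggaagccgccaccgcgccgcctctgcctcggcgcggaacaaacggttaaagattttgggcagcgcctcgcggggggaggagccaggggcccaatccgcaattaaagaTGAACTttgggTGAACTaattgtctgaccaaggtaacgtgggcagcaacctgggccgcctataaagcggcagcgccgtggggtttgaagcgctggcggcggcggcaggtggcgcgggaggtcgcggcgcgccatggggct

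The hexamer searched for was AGGTCA, where the first A could also be G and the second G could also be T, in any pair on both strands, with a spacer of 1, 2 or 5 bases. In RARB the repeat began 53 bases before the start and read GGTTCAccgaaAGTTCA on the gene's strand. In CYP26A1 it lay on the opposite strand, where it read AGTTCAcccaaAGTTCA, 90 bases before the start. These were the windows with a match among the 19 windows of the 10 genes, and the spacer of 5 was found in 31 of 35116 windows of all genes (0.0883%). Repeats with a spacer of 1 (0.131% of all windows) or 2 (0.0399%) were not found in the members' windows. A match describes the letters of these windows and does not show that a receptor was bound there.

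The count tables held 5781357 to 14973722 counts per library, given here as CPM (counts scaled to 1000000 per library), which do not allow for gene length. The layer and H9 tables hold TPM, the corresponding unit of transcripts after scaling for length, without read totals. Their depth is unknown, and nothing says how much a gene listed at 0 could still have had. Whole-gene KDM6A reached 78.2 to 82.3 CPM in DKO and 88.2 to 106 CPM in UTXKO, against 85.8 to 98.2 CPM in WT, and UTY 57.0 to 58.4 CPM in DKO and 51.0 to 59.7 CPM in UTYKO, against 34.9 to 36.4 CPM in WT and 24.5 to 34.5 CPM in UTYKO_ctrl. Whole-gene levels therefore do not check the knockouts, whose place in the genes is not given. In H9, UTY was at 0.0545 to 0.328 TPM in WT, 0.0392 to 0.322 TPM in set 3 and 0.0383 to 0.644 TPM in set 4. Of the markers of the labelled states, SOX17 was at 615 to 690 TPM in Endo DKO and 881 to 913 TPM in Endo WT, MIXL1 at 2037 to 2316 TPM in Meso DKO and 2526 to 2734 TPM in Meso WT, and SOX1 at 361 to 435 TPM in Ecto DKO and 64.9 to 85.9 TPM in Ecto WT. The pluripotency factor POU5F1 still stood at 958 to 1070 TPM in Endo DKO and 1607 TPM in both Endo WT libraries. All tables were normalised separately, so levels are compared by test within a table and set side by side across tables without a test.

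A member counts as changed where its adjusted p in the fit over all genes was under 0.05 (edgeR for counts, limma for log2(TPM + 1)), and every count is to be read against the share of all tested genes that passed. In undifferentiated cells, 7 of the 10 members had enough counts to be tested. In DKO against WT 2 rose and 3 fell, where 46.9% of all genes passed, 23.5% higher and 23.4% lower. In UTXKO 3 fell and 0 rose, where 12.5% of genes passed and 6.31% were lower. In UTYKO against UTYKO_ctrl 0 passed with edgeR or DESeq2, 4 had an unadjusted p under 0.05 and 0.606% of all genes passed. The UTYKO_ctrl libraries differed from each other far more than those of the other groups (chi-square over its degrees of freedom of 14.99, against 1.62 to 3.68). The few calls in UTYKO therefore do not show that its effects were small. DKO against UTXKO had 3 members higher and 2 lower, against 34.9% of genes, 18.3% higher and 16.6% lower. These comparisons share libraries: DKO and UTXKO are set against the same WT libraries. In H9 1 of 7 tested members fell, where 4.58% of genes passed and 1.77% were lower.

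In the germ layer cultures, 8 members were tested in Endo, 8 in Meso and 9 in Ecto. Endo DKO had 3 members lower, where 12.1% of genes passed and 5.1% were lower. Meso DKO had 2 lower, against 10.1% of genes and 3.7% lower. Ecto DKO had 3 higher and 2 lower, against 8.03% of genes, 4.18% higher and 3.86% lower. The single knockouts gave 1 call each in Ecto, both CYP26A1, where 0.356% (0.136% lower) of genes passed in XKO and 0.0842% (0.0259% lower) in YKO. They gave 0 calls in Endo, where 0.0319% of genes passed in XKO and 0.0255% in YKO, and 0 in Meso, where the shares were 0.0397% and 0.0132%. With limma, 1 member of Endo XKO, 2 of Endo YKO, 2 of Meso XKO and 2 of Meso YKO had an unadjusted p under 0.05. Within each layer the 3 knockouts share the same WT libraries.

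DKO was also set against the mean of XKO and YKO, which asks whether losing both genes differed from losing either. In Endo 3 members were lower, where 13.5% of genes passed and 5.56% were lower. In Meso 1 was higher and 2 lower, against 37.3% of genes, 27.9% higher and 9.38% lower. In Ecto 3 were higher and 1 lower, against 7.4% of genes, 3.54% higher and 3.86% lower. The median log2 fold change of the tested members was -0.31 in DKO against 0.004 for all genes tested, -0.75 in Endo DKO against 0.12, -0.56 in Meso DKO against 0.21, -0.21 in Ecto DKO against 0.08, -0.22 in UTXKO against -0.002, and -0.67 in H9 UTXKO against 0.09. It was 0.22 in UTYKO against -0.01 for all genes, and 0.17 in DKO against UTXKO, where all genes had 0.003. Against the single knockouts the members' median was -0.13 in Endo DKO, where all genes had 0.12, -0.34 in Meso DKO, where they had 0.50, and 0.60 in Ecto DKO, where they had 0.06. In the single layer knockouts it lay between -0.39 and 0, with all genes between -0.28 and 0.06.

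In the TPM tables the median of all genes was itself shifted, by up to 0.50 in Meso DKO against the single knockouts. Centring each library on its median left more of the calls on the lower side in the DKO and H9 comparisons. In the single layer knockouts it did not. There 3 of 5 calls were higher in Endo XKO and 2 of 2 once centred, 3 of 6 and 5 of 8 in Meso XKO, 34 of 55 and 40 of 61 in Ecto XKO, and 9 of 13 and 10 of 14 in Ecto YKO. In Endo YKO and Meso YKO every call was higher both ways, 4 and 2 in number. Of all calls, 57.9% were higher in Endo DKO and 43.5% once centred, 63.2% and 37.3% in Meso DKO, 52.0% and 38.5% in Ecto DKO, and 61.4% and 29.5% in H9. Against the single knockouts the shares were 58.8% and 41.6% in Endo, 74.8% and 34.9% in Meso, and 47.9% and 35.2% in Ecto. RARG in Meso DKO was then at -2.06 and CRABP2 at -1.05, and both still passed with limma, while CRABP1 against the single Meso knockouts, at 1.25, was the member call that did not (limma, adjusted p = 0.151).

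**Figure D1:**
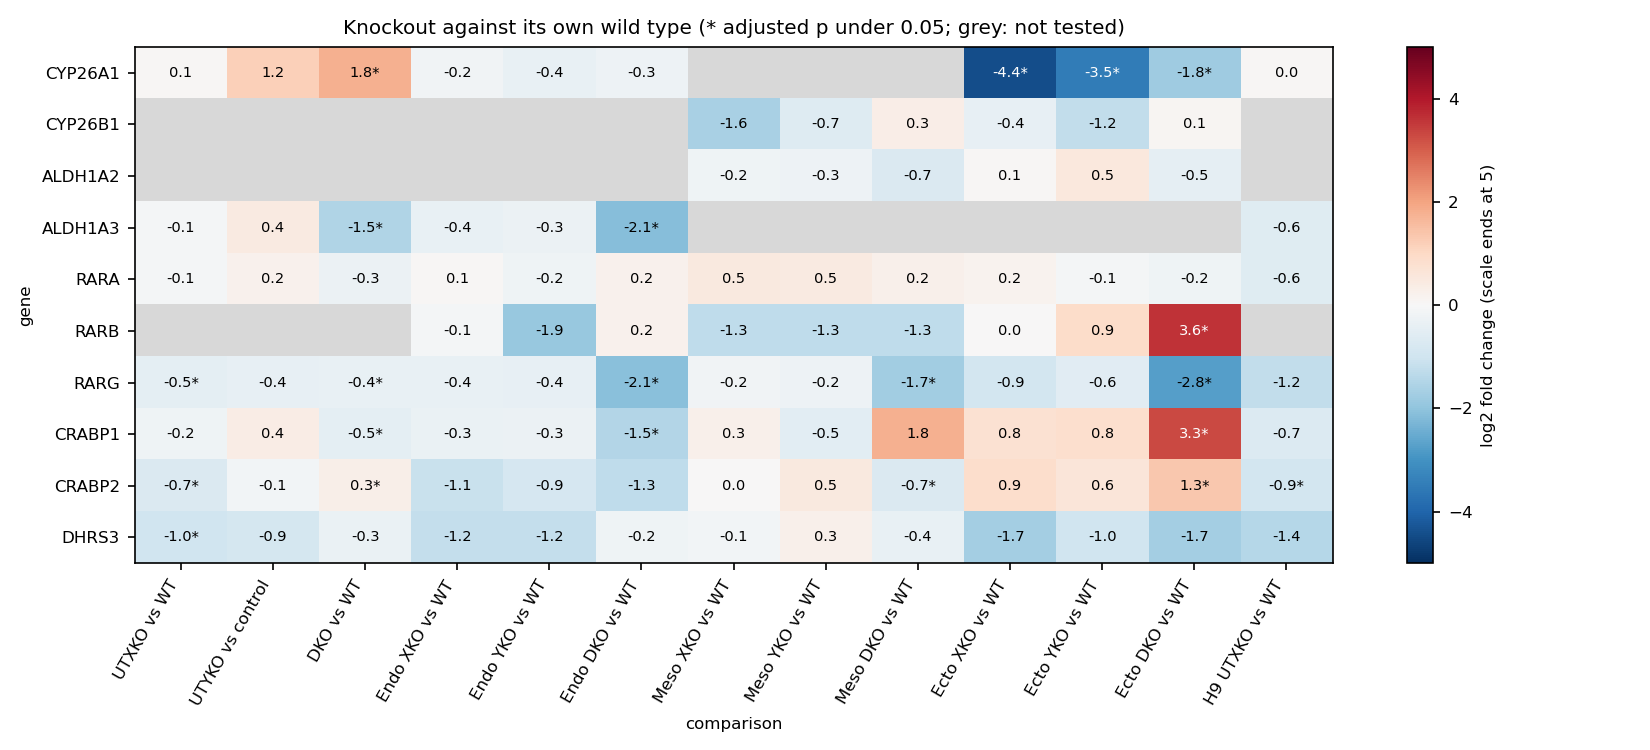
Log2 fold changes of the members (rows) in the 13 comparisons of a knockout with its own WT or control (columns), from edgeR for counts and limma for log2(TPM + 1), with red higher, blue lower in the knockout, grey not tested and a star at an adjusted p under 0.05. RARG carries 5 stars, all of them lower, and CRABP1 is blue in undifferentiated and Endo DKO (-0.47 and -1.47) and red in Ecto DKO (3.30).

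Of the aldehyde dehydrogenases ALDH1A2 and ALDH1A3, the one with more than 1 count in any undifferentiated library was ALDH1A3 (ENSG00000184254.17, chr15:100877714-100916626, plus strand, GENCODE v29 on GRCh38, as for all gene positions here). It had 2.999 and 3.17 CPM in DKO (27 and 25 counts), 6.73 and 8.89 CPM in UTXKO, and 9.51 and 7.54 CPM in WT (64 and 82 counts). Both DKO libraries lay below all libraries of UTXKO and WT, whose ranges overlapped. ALDH1A3 fell in DKO against WT by 1.49 ± 0.24 on the log2 scale (SE, edgeR, adjusted p = 2.389e-05) and against UTXKO by 1.36 ± 0.26 (edgeR, adjusted p = 1.669e-04). UTYKO had 7.96 and 6.88 CPM, against 5.48 and 5.34 CPM in UTYKO_ctrl, higher without overlap but not past the threshold.

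In endoderm cultures ALDH1A3 was again low where both genes were lost, with 2.18 and 4.61 TPM in Endo DKO, 10.2 and 17.4 TPM in XKO, 11.4 and 17.8 TPM in YKO, and 10.8 and 28.7 TPM in WT. The DKO libraries lay below the others, which overlapped. The log2 difference was -2.15 ± 0.55 against WT (limma, adjusted p = 0.0436) and -1.81 ± 0.48 against the single knockouts (limma, adjusted p = 0.0448). Both calls were close to the threshold, which was passed in 3 of the 11 alternatives against WT and 4 of 11 against the single knockouts. Without the WT library at 28.7 TPM the difference was -1.48 (limma, adjusted p = 0.201). ALDH1A3 was listed at 0 in all 8 Meso libraries and in 7 of the 8 Ecto libraries, with 0.959 TPM in 1 XKO library, and it was between 0.022 and 1.19 TPM in H9. Its exons overlap those of genes on both strands, and whether the counting used strand is not given in the sources used here.

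ALDH1A2 (ENSG00000128918.15, chr15:57953424-58497866, minus strand), the main retinoic acid synthase of embryonic mesoderm, was found in the mesoderm cultures and hardly elsewhere. It had 15.5 and 19.02 TPM in Meso DKO, 32.8 and 18.9 TPM in XKO, 28.4 and 20.5 TPM in YKO, and 35.3 and 24.3 TPM in WT. The DKO libraries were below both WT libraries, but their upper value overlapped XKO and no Meso comparison passed the threshold. In undifferentiated cells it had 0 or 1 count per library, it was listed at 0 in 7 of 8 Endo libraries, and it did not exceed 1.55 TPM in Ecto or 1.18 TPM in H9.

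DHRS3 (ENSG00000162496.9, chr1:12567910-12617731, minus strand), which works against synthesis, fell in undifferentiated UTXKO cells, its 1 call against an own WT or control. It had 10.9 and 6.35 CPM in UTXKO, against 20.2 and 14.98 CPM in WT, and the ranges did not overlap. Its log2 fold change was -0.98 ± 0.20 (edgeR, adjusted p = 0.00137), and between -1.43 and -0.66 over 8 alternatives, all past the threshold. In DKO it stood at 13.9 and 14.7 CPM, just below WT, and was higher than in UTXKO by 0.68 ± 0.20 (edgeR, adjusted p = 0.0101), a difference that was 0.34 without the UTXKO library at 6.35 CPM (edgeR, adjusted p = 0.254) and 1.14 without the other. It also missed the threshold with DESeq2 (0.68, adjusted p = 0.0915). DKO against WT gave -0.31 ± 0.15 and did not pass (edgeR, adjusted p = 0.0885), though it did without WT library 2 (-0.53, edgeR, adjusted p = 0.0072) and with the replicate block (-0.33, edgeR, adjusted p = 0.0464).

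UTYKO had 7.44 and 8.06 CPM of DHRS3, against 12.6 and 15.6 CPM in UTYKO_ctrl, without overlap. The log2 difference of -0.87 ± 0.23 was not called (edgeR, adjusted p = 0.122). It passed in edgeR with the replicate block (-0.88, adjusted p = 5.55e-04), in the fit of all 10 libraries (-0.86, adjusted p = 0.0454) and without UTYKO_ctrl library 1 (-1.01, adjusted p = 1.57e-04). In H9 DHRS3 had 4.51 and 10.1 TPM in UTXKO set 3 and 16.4 and 10.1 TPM in set 4, against 32.8 and 22.3 TPM in WT. All 4 knockout libraries were below both WT libraries, at a log2 difference of -1.43 ± 0.43 that missed the threshold (limma, adjusted p = 0.113). In Meso DHRS3 was between 20.9 and 22.0 TPM in DKO, 19.9 and 33.6 TPM in XKO, 27.7 and 42.7 TPM in YKO, and 23.3 and 34.6 TPM in WT. In Endo it was listed at 0 in 6 of 8 libraries and in Ecto in 3 of 8, and it did not exceed 8.41 TPM in either layer.

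CYP26A1 (ENSG00000095596.12, chr10:93073475-93077890, plus strand), the enzyme that clears retinoic acid, rose in undifferentiated DKO cells. It had 15.3 and 17.8 CPM in DKO (138 and 140 counts), 4.58 and 5.08 CPM in UTXKO, and 5.50 and 4.04 CPM in WT (37 and 44 counts). DKO lay above all others and UTXKO overlapped WT. The log2 fold change was 1.78 ± 0.19 against WT (edgeR, adjusted p = 7.066e-08) and 1.74 ± 0.20 against UTXKO (edgeR, adjusted p = 1.471e-07), and it passed in every alternative run for either comparison. UTYKO had 4.497 and 4.20 CPM, against 1.40 and 2.20 CPM in UTYKO_ctrl, without overlap, at a log2 difference of 1.20 ± 0.33 that was not called (edgeR, adjusted p = 0.148). That difference passed in edgeR with the replicate number as a block (1.19, adjusted p = 0.00756), in the fit of all 10 libraries (adjusted p = 0.0389), with no filter on low counts (adjusted p = 0.0232) and without UTYKO_ctrl library 2 (1.63, adjusted p = 0.0293).

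In ectoderm cultures CYP26A1 went the other way, and every knockout was below WT. It had 42.3 and 62.3 TPM in Ecto DKO, 6.11 and 8.63 TPM in XKO, 12.6 and 17.01 TPM in YKO, and 138 and 224 TPM in WT. The order from low to high was XKO, YKO, DKO and WT, with no overlap between neighbours. Against WT the log2 difference was -1.76 ± 0.33 in DKO (limma, adjusted p = 0.0186), -4.42 ± 0.33 in XKO (limma, adjusted p = 0.00376) and -3.50 ± 0.33 in YKO (limma, adjusted p = 0.0224). DKO was higher than the mean of the single knockouts by 2.20 ± 0.28 (limma, adjusted p = 0.0039).

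With 2 libraries a group, some of these ectoderm calls rest on each library. The DKO call was lost without DKO library 1 (limma, adjusted p = 0.112) or WT library 2 (limma, adjusted p = 0.118), the XKO call without either XKO library (limma, largest adjusted p = 0.0601), and the YKO call in 6 of 11 alternatives (limma, largest adjusted p = 0.191). The log2 difference stayed between -4.77 and -4.07 for XKO and between -3.85 and -3.15 for YKO. The comparison of DKO with the single knockouts passed in all 11 alternatives.

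In endoderm cultures CYP26A1 was high in all genotypes, with 432 and 416 TPM in Endo DKO, 407 and 494 TPM in XKO, 356 and 433 TPM in YKO, and 531 and 480 TPM in WT. DKO and YKO lay below WT, XKO overlapped it, and none passed, with a log2 difference of -0.36 ± 0.14 for YKO (limma, adjusted p = 0.347). In mesoderm cultures it was listed at 0 in 7 of 8 libraries, with 1.28 TPM in 1 WT library, and H9 had 0.016 to 1.08 TPM. Set side by side without a test, WT cultures had the most CYP26A1 in Endo, less in Ecto and next to none in Meso, the layer with ALDH1A2. Its exons overlap those of AL358613.3 on the same strand, so the counting could split reads between them.

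CYP26B1 (ENSG00000003137.9, chr2:72129238-72148038, minus strand), a second retinoic acid hydroxylase, was low throughout. It had 0 to 5 counts per undifferentiated library, was listed at 0 in all Endo libraries, and was at most 0.044 TPM in H9. In Meso it had 6.27 and 3.69 TPM in DKO, 1.31 and 0 TPM in XKO, 3.18 and 1.11 TPM in YKO, and 2.82 and 4.71 TPM in WT. No comparison passed, at log2 differences of -1.62 ± 0.62 for XKO (limma, adjusted p = 0.439) and 1.46 ± 0.54 for DKO against the single knockouts (limma, adjusted p = 0.0657). The second passed without XKO library 1 (limma, adjusted p = 0.043) or YKO library 1 (limma, adjusted p = 0.0449). Ecto held 1.99 and 1.12 TPM in DKO, 0 and 2.12 TPM in XKO, 0 in both YKO libraries, and 1.23 and 1.53 TPM in WT.

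**Figure D2:**
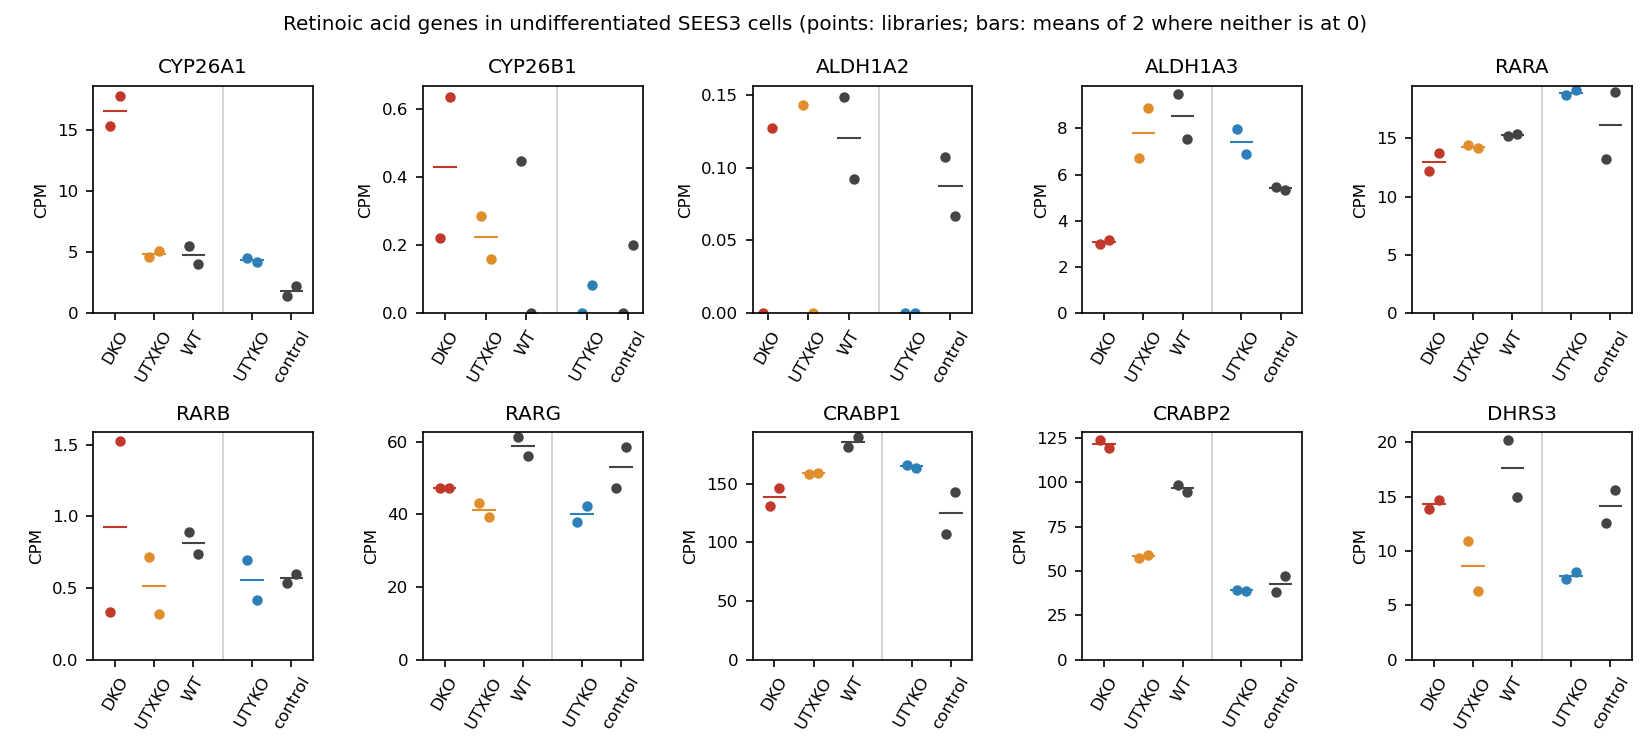
CPM of the 10 genes in undifferentiated SEES3 libraries, a point per library and a bar at the mean of 2 where neither is at 0, for DKO, UTXKO and WT left of the line and UTYKO and its control (UTYKO_ctrl) right of it. DKO stands above WT for CYP26A1 and CRABP2 and below it for ALDH1A3, and UTXKO is below WT for RARG, CRABP2 and DHRS3.

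Among the carriers, CRABP1 (ENSG00000166426.8, chr15:78340324-78348230, plus strand) showed the largest rise among the members' calls whose WT libraries were above 0. Ecto DKO had 5400.4 and 4726 TPM, XKO 911 and 811 TPM, YKO 1109 and 736 TPM, and WT 519.7 and 501 TPM. Both single knockouts lay above WT and the DKO libraries stood far above all others. The log2 difference was 3.30 ± 0.19 in DKO against WT (limma, adjusted p = 7.813e-05) and 2.52 ± 0.16 against the single knockouts (limma, adjusted p = 1.655e-04). XKO gave 0.75 ± 0.19 (limma, adjusted p = 0.228) and YKO 0.82 ± 0.19 (limma, adjusted p = 0.181), and neither was called.

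CRABP1 was lower, not higher, in endoderm cultures without both genes. Endo DKO had 182 and 149 TPM, XKO 375 and 357 TPM, YKO 494 and 277 TPM, and WT 472 and 443 TPM. DKO was below all other libraries, while YKO spanned WT. The log2 difference was -1.47 ± 0.24 against WT (limma, adjusted p = 0.00792), lost without WT library 1 at -1.42 (limma, adjusted p = 0.0531), and -1.16 ± 0.21 against the single knockouts (limma, adjusted p = 0.00991), lost without DKO library 2 at -1.01 (limma, adjusted p = 0.0818).

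Meso DKO had 67.7 and 62.0 TPM of CRABP1, XKO 19.9 and 24.6 TPM, YKO 5.34 and 28.0 TPM, and WT 21.4 and 15.9 TPM. DKO was above every other library, but the log2 difference of 1.76 ± 0.62 against WT was not called (limma, adjusted p = 0.119). The 1.89 ± 0.54 against the single knockouts was called (limma, adjusted p = 0.0285) and passed in 4 of 11 alternatives, with 1.25 once libraries were centred on their medians (limma, adjusted p = 0.151). In undifferentiated cells CRABP1 had 131 and 146 CPM in DKO, 158 and 159 CPM in UTXKO, and 181 and 189.6 CPM in WT, an order without overlap. UTYKO_ctrl, the other control, had 107 and 143 CPM, which overlapped DKO and lay below WT, and the controls were not compared by test. CRABP1 fell by 0.47 ± 0.07 on the log2 scale in DKO against WT (edgeR, adjusted p = 9.819e-06) and by 0.23 ± 0.08 against UTXKO (edgeR, adjusted p = 0.020). The second call was lost without DKO library 1 (-0.16, edgeR, adjusted p = 0.309), in the fit of all 10 libraries (edgeR, adjusted p = 0.22) and with DESeq2 (-0.24, adjusted p = 0.0648).

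UTXKO against WT gave -0.22 ± 0.08 for CRABP1 and missed the threshold (edgeR, adjusted p = 0.071), which it passed with the replicate block (edgeR, adjusted p = 0.0408). UTYKO had 166 and 164 CPM, against 107 and 143 CPM in UTYKO_ctrl, at 0.39 ± 0.17 and not called (edgeR, adjusted p = 0.711), though it passed without UTYKO_ctrl library 2 (0.63, edgeR, adjusted p = 2.07e-04). H9 had 139 and 67.9 TPM in UTXKO set 3 and 104 and 142 TPM in set 4, against 152 and 198 TPM in WT, all 4 knockout libraries lower. That difference of -0.67 ± 0.29 was not called (limma, adjusted p = 0.242).

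CRABP2 (ENSG00000143320.9, chr1:156699606-156705816, minus strand), which delivers retinoic acid to its receptors, gave opposite calls in undifferentiated UTXKO and DKO. It had 124 and 119 CPM in DKO, 57.4 and 59.2 CPM in UTXKO, and 98.7 and 94.6 CPM in WT, with no overlap between any pair of groups. CRABP2 fell in UTXKO by 0.72 ± 0.09 on the log2 scale (edgeR, adjusted p = 2.557e-06) and rose in DKO by 0.28 ± 0.07 (edgeR, adjusted p = 0.002). DKO against UTXKO gave 1.03 ± 0.08 (edgeR, adjusted p = 8.622e-11), which is the test of that difference and passed in all 10 alternatives. The rise against WT missed the threshold in 1 fit of all 10 undifferentiated libraries (0.31, edgeR, adjusted p = 0.0535).

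UTYKO had 39.4 and 38.9 CPM of CRABP2, against 38.5 and 46.9 CPM in UTYKO_ctrl, and overlapped it. Both UTYKO_ctrl libraries were below both UTXKO libraries, so UTXKO lay between the controls WT and UTYKO_ctrl. The difference between those controls was not tested, and it limits what the calls against WT show about genotype. UTY was at most 0.644 TPM in H9, so H9 UTXKO does not match SEES3 UTXKO, where UTY was at 30.5 to 32.6 CPM. CRABP2 was called as lower in H9 UTXKO, with 38.1 and 35.6 TPM in set 3 and 32.6 and 32.8 TPM in set 4, against 60.3 and 72.4 TPM in WT. The log2 difference was -0.91 ± 0.12 (limma, adjusted p = 0.0105). It was -0.78 without WT library 2 (limma, adjusted p = 0.0597), -0.83 with set 3 alone (limma, adjusted p = 0.0969) and -0.99 with set 4 alone (limma, adjusted p = 0.0665).

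In mesoderm cultures CRABP2 was abundant and lower in DKO, with 1389 and 1412 TPM in Meso DKO, 2317 and 2432 TPM in XKO, 3090.3 and 3500.2 TPM in YKO, and 2391 and 2252 TPM in WT. DKO lay below all others, YKO above all others, and XKO overlapped WT. The log2 difference was -0.73 ± 0.13 in DKO (limma, adjusted p = 0.0141), lost without any 1 of the DKO or WT libraries (limma, largest adjusted p = 0.11), and -0.996 ± 0.11 against the single knockouts (limma, adjusted p = 0.00134), which held in all 11 alternatives. YKO gave 0.50 ± 0.13 and was not called (limma, adjusted p = 0.106).

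Ecto DKO had 1558 and 1617 TPM of CRABP2, XKO 1330.0 and 988 TPM, YKO 1004 and 909 TPM, and WT 554 and 704 TPM. Every knockout library was above both WT libraries, with a log2 difference of 1.35 ± 0.17 in DKO that was called (limma, adjusted p = 0.00367). XKO at 0.88 ± 0.17 (limma, adjusted p = 0.116) and YKO at 0.61 ± 0.17 (limma, adjusted p = 0.292) were not called, nor was DKO against the single knockouts at 0.60 ± 0.15 (limma, adjusted p = 0.0516). Endo had 26.9 and 68.2 TPM in DKO, 43.9 and 51.4 TPM in XKO, 43.8 and 74.6 TPM in YKO, and 113 and 96.0 TPM in WT. All 6 knockout libraries were below WT and none of the differences passed, the largest being -1.26 ± 0.41 in DKO (limma, adjusted p = 0.0926) and -1.12 ± 0.41 in XKO (limma, adjusted p = 0.559).

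**Figure D3:**
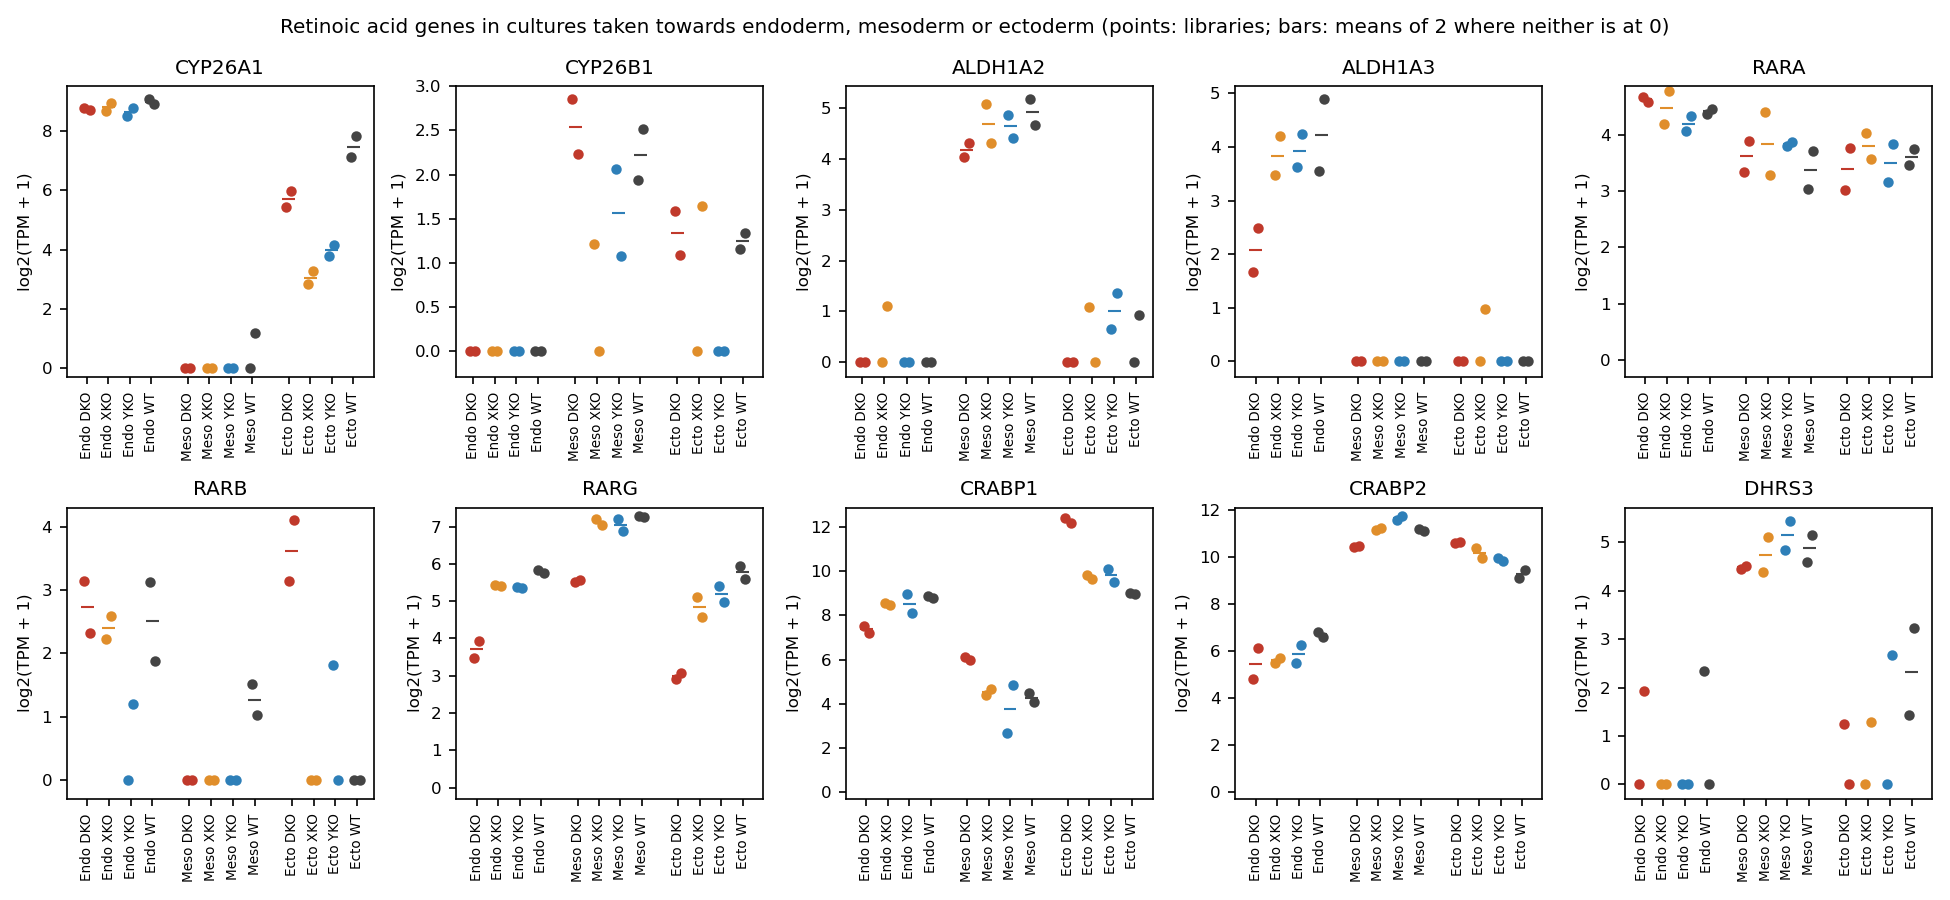
TPM of the 10 genes in the Endo, Meso and Ecto cultures of SEES3 cells, a point per library and a bar at the mean of 2 where neither is at 0, with DKO, XKO, YKO and WT from left to right in each layer. RARG is lowest in DKO in all 3 layers, and CRABP1 in Ecto DKO (5400.4 and 4726 TPM) stands above every other culture.

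RARG (ENSG00000172819.17, chr12:53210567-53232980, minus strand), another of the nuclear receptors, was the member most often called as lower. It passed as lower in 5 of the 13 comparisons with an own WT or control and as higher in 0, while CRABP2 also had 5 calls, 2 higher and 3 lower. In Meso RARG had 44.8 and 46.4 TPM in DKO, 146 and 130.1 TPM in XKO, 147 and 116 TPM in YKO, and 156 and 153 TPM in WT. DKO lay far below the other groups, and both single knockouts lay below WT without passing. The log2 difference was -1.74 ± 0.18 against WT (limma, adjusted p = 0.00177) and -1.54 ± 0.15 against the single knockouts (limma, adjusted p = 8.686e-04).

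Endo DKO had 10.2 and 14.4 TPM of RARG, XKO 42.3 and 41.5 TPM, YKO 40.9 and 39.8 TPM, and WT 56.1 and 53.0 TPM. The groups did not overlap, with the single knockouts close together between WT and DKO. The log2 difference of Endo DKO was -2.08 ± 0.22 against WT (limma, adjusted p = 0.00113) and -1.68 ± 0.19 against the single knockouts (limma, adjusted p = 0.00127). Ecto showed the same order, with 6.58 and 7.42 TPM in DKO, 33.5 and 23.0 TPM in XKO, 41.1 and 30.7 TPM in YKO, and 60.2 and 47.6 TPM in WT, where XKO and YKO overlapped. The log2 difference in Ecto was -2.77 ± 0.28 for DKO against WT (limma, adjusted p = 0.00145) and -2.02 ± 0.25 against the single knockouts (limma, adjusted p = 0.00294), and -0.92 ± 0.28 for XKO was not called (limma, adjusted p = 0.348). RARG in DKO passed in all alternatives run in the 3 layers, both against WT and against the single knockouts.

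In undifferentiated cells RARG had 47.2 and 47.4 CPM in DKO, 43.1 and 39.2 CPM in UTXKO, and 61.4 and 56.2 CPM in WT. Both knockouts lay below WT, by log2 fold changes of -0.36 ± 0.08 in DKO (edgeR, adjusted p = 0.00153) and -0.50 ± 0.10 in UTXKO (edgeR, adjusted p = 0.00134). In 1 fit of all 10 libraries neither passed (edgeR, adjusted p = 0.0664 in DKO and 0.0523 in UTXKO). UTYKO had 37.9 and 42.2 CPM, against 47.3 and 58.6 CPM in UTYKO_ctrl, at -0.40 ± 0.19 and not called (edgeR, adjusted p = 0.802). H9 had 20.4 and 19.6 TPM in UTXKO set 3 and 9.37 and 20.8 TPM in set 4, against 35.9 and 46.4 TPM in WT, all 4 knockout libraries lower. The difference of -1.24 ± 0.32 missed the threshold (limma, adjusted p = 0.0777), and without the library at 9.37 TPM it was -0.98 and passed (limma, adjusted p = 0.0371).

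**Figure D4:**
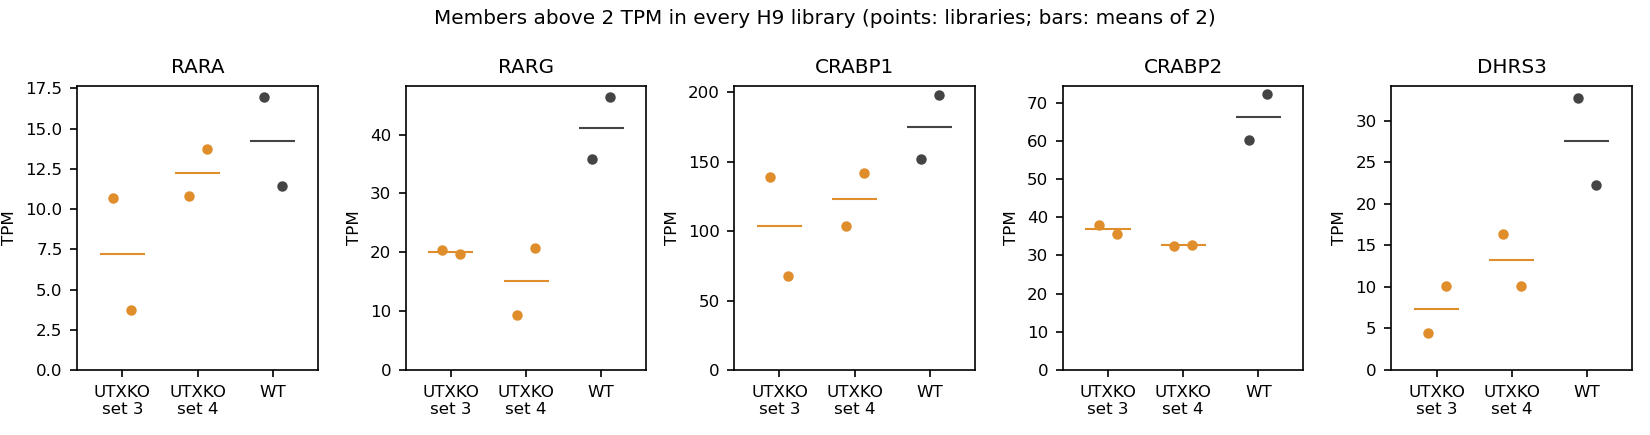
TPM of RARA, RARG, CRABP1, CRABP2 and DHRS3, the members above 2 TPM in every H9 library, with a point per library for UTXKO sets 3 and 4 and for WT. For RARG, CRABP1, CRABP2 and DHRS3 all 4 knockout libraries lie below both WT libraries, and CRABP2 is the one with an adjusted p under 0.05 (limma).

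RARB (ENSG00000077092.19, chr3:25174332-25597932, plus strand), whose own transcription answers to retinoic acid through the repeat printed above, was near the limit of detection in most groups. Undifferentiated cells had 3 and 12 counts in DKO, 5 and 2 in UTXKO, and 6 and 8 in WT, with 4 and 5 in UTYKO against 5 and 9 in UTYKO_ctrl, too few to be tested. In Ecto it had 7.82 and 16.2 TPM in DKO, 0 in both XKO libraries, 2.53 and 0 TPM in YKO, and was listed at 0 in both WT libraries. The fitted difference on the log2(TPM + 1) scale, which depends on the pseudocount and is not a fold, was 3.62 ± 0.70 against WT (limma, adjusted p = 0.0209) and 3.17 ± 0.61 against the single knockouts (limma, adjusted p = 0.0217). The call against WT was lost with log2(TPM + 0.1) (limma, adjusted p = 0.0598) and without any 1 of the DKO or WT libraries (limma, largest adjusted p = 0.148), and that against the single knockouts likewise with log2(TPM + 0.1) and without any 1 of the DKO or XKO libraries (limma, largest adjusted p = 0.2).

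Elsewhere RARB did not pass. Endo had 7.87 and 3.99 TPM in DKO, 3.67 and 5.01 TPM in XKO, 0 and 1.28 TPM in YKO, and 7.78 and 2.67 TPM in WT, with a log2 difference of -1.91 ± 0.65 for YKO (limma, adjusted p = 0.313). In Meso it was listed at 0 in all 6 knockout libraries, against 1.85 and 1.03 TPM in WT. The fitted Meso difference, which is no fold, was -1.26 ± 0.41 for each knockout, with adjusted p from limma of 0.099 in DKO, 0.408 in XKO and 0.134 in YKO. H9 had 0.026 to 0.857 TPM in UTXKO and 0.053 and 2.08 TPM in WT. The gene's exons overlap those of TOP2B on the opposite strand.

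RARA (ENSG00000131759.18, chr17:40309192-40357643, plus strand), the most widely expressed receptor of the family, was tested in all 13 comparisons and passed in 0, with 0 unadjusted p-values under 0.05 among them in edgeR or limma. Undifferentiated cells had 12.2 and 13.7 CPM in DKO, 14.5 and 14.1 CPM in UTXKO, and 15.2 and 15.3 CPM in WT, with 18.7 and 19.1 CPM in UTYKO against 13.2 and 18.97 CPM in UTYKO_ctrl. Endo had 24.5 and 22.8 TPM in DKO, 17.2 and 26.4 TPM in XKO, 15.7 and 19.03 TPM in YKO, and 19.7 and 20.8 TPM in WT. The values ran from 7.20 to 20.1 TPM in the Meso libraries and from 7.11 to 15.3 TPM in the Ecto libraries, with the genotypes overlapping in Ecto. H9 held 10.7 and 3.75 TPM in set 3 and 10.8 and 13.7 TPM in set 4, against 16.99 and 11.4 TPM in WT. In TPM, which allows genes to be compared, RARG stood above RARA in every WT layer library, while in Endo, Meso and Ecto DKO the gap narrowed and in Endo and Ecto was reversed in mean level (12.3 TPM of RARG and 23.7 TPM of RARA in Endo DKO, 6.999 TPM of RARG and 9.86 TPM of RARA in Ecto DKO).

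Markers of other cell types moved with the DKO cultures, and their part in the members' changes was not tested. In Ecto DKO the 6 ectoderm markers summed to 2183 to 2592 TPM, against 966 to 1041 TPM in Ecto WT. Of these markers 2 were called higher and 2 lower with limma, where 8.03% of all genes passed. The 6 pluripotency markers summed to 2102 to 2275 TPM in Ecto DKO, against 5600 to 5706 TPM in Ecto WT. POU5F1, given below, was a small part of the Ecto WT sum, and TDGF1 was at 0 in both Ecto WT libraries. The 5 stroma markers summed to 422 to 599 TPM in Ecto DKO, against 36.2 to 45.5 TPM in Ecto WT, where COL3A1, LUM and DCN were at 0 in both libraries. The ectoderm sum was higher in Ecto DKO, though PAX6, a neural regulator on that list, was at 4.20 to 4.74 TPM in Ecto DKO and 25.8 to 26.4 TPM in Ecto WT. POU5F1 stood at 11.3 to 11.7 TPM in Ecto DKO, 18.8 to 24.8 TPM in XKO, 24.4 to 28.4 TPM in YKO and 126 to 136 TPM in WT.

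The Endo DKO cultures had less of the endoderm markers and more of the neuronal ones. The 6 endoderm markers summed to 8653 to 9352 TPM in Endo DKO, against 31200 to 31430 TPM in Endo WT, and the 4 neuron markers to 140 to 216 TPM in Endo DKO, against 6.18 to 13.6 TPM in Endo WT. SOX1 was at 236 to 252 TPM in Endo DKO, against 0 to 1.08 TPM in Endo WT. In Meso DKO, where MESP1 was at 0 in both libraries, the 8 mesoderm markers summed to 2825 to 3052 TPM, against 3707 to 3940 TPM in Meso WT, and the 4 neuron markers to 851 to 1095 TPM, against 27.9 to 68.7 TPM in Meso WT. In undifferentiated DKO the ectoderm markers summed to 676 to 722 CPM, against 515 to 531 CPM in WT, and the pluripotency markers to 4286 to 4304 CPM, against 4514 to 4818 CPM in WT. The mesoderm markers summed to 49.4 to 54.3 CPM in undifferentiated DKO, against 120.2 to 125.4 CPM in WT. In UTYKO_ctrl, the other control, the ectoderm sum was 579 to 688 CPM, which overlapped DKO. Its mesoderm sum was 62.9 to 71.0 CPM, between DKO and WT, and its pluripotency sum was 4739 to 4972 CPM, above DKO. The 5 stroma markers summed to 155 to 168 CPM in undifferentiated DKO, against 180.4 to 180.7 CPM in WT. Of these, 3 were called higher and 2 lower with edgeR, where 46.9% of all genes passed. COL3A1 had 179 and 166 counts in undifferentiated DKO, LUM 178 and 197 and DCN 24 and 27, against 0 counts of each in both WT libraries. In H9 UTXKO the pluripotency markers summed to 5583 to 5873 TPM, against 7592 to 7666 TPM in H9 WT, and the ectoderm markers to 274 to 343 TPM, against 513 to 524 TPM in H9 WT. In bulk RNA, fewer cells of a type and less RNA per cell cannot be told apart.

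The other genes that handle retinoids changed in DKO without a common direction. Of the 12 on the list, 7 were tested in undifferentiated cells and 1 rose and 4 fell in DKO against WT, where 46.9% of all genes passed, 23.5% higher and 23.4% lower. STRA6, the membrane receptor that imports retinol, had 47.3 and 41.5 CPM in DKO, against 16.9 and 19.7 CPM in WT, a log2 fold change of 1.21 ± 0.11 (edgeR, adjusted p = 1.3229e-08). LRAT, which stores retinol as esters, had 149.8 and 152 CPM in DKO, against 208 and 206 CPM in WT, and fell by 0.51 ± 0.06 on the log2 scale (edgeR, adjusted p = 1.1502e-06). UTYKO_ctrl had 88.4 to 119 CPM of LRAT, so DKO lay between the controls, whose difference was not tested. RDH10, the retinol dehydrogenase that starts synthesis in embryos, had 10.3 and 9.91 CPM in DKO, against 22.3 and 15.8 CPM in WT, and fell by 0.92 ± 0.16 (edgeR, adjusted p = 7.8339e-05).

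LRAT was nearly absent from Ecto DKO, with 1.92 and 3.61 TPM in DKO, 93.7 and 103 TPM in XKO, 51.6 and 86.2 TPM in YKO, and 86.6 and 109.9 TPM in WT. It was the 1 of 8 tested retinoid handling genes called in that comparison, at -4.75 ± 0.32 on the log2(TPM + 1) scale (limma, adjusted p = 1.6419e-04). In Endo DKO it went up, with 47.9 and 79.6 TPM in DKO, against 21.0 and 27.6 TPM in WT (1.33 ± 0.26, limma, adjusted p = 0.015493), while XKO had 103 and 107 TPM and YKO 69.2 and 80.7 TPM. It was the 1 of 9 tested genes that rose in Endo DKO, and the call was lost in 2 of 11 alternatives (limma, largest adjusted p = 0.0916 without WT library 1). The other Endo call and the 1 call among 7 tested genes in Meso DKO were falls of FABP5, whose counts in undifferentiated cells (5 to 27 per library) and TPM elsewhere (49.2 to 468) are so far apart that its reads may be shared with near-identical copies, so it is left as uncertain. Of all genes 8.03% passed in Ecto DKO, 12.1% in Endo DKO and 10.1% in Meso DKO.

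LRAT was also the 1 of 9 tested genes of this list that rose in H9 UTXKO. It had 126 and 110 TPM in set 3 and 101 and 104 TPM in set 4, against 69.3 and 78.7 TPM in WT (0.57 ± 0.11, limma, adjusted p = 0.032571), and passed in 1 of 11 alternatives. In SEES3 UTXKO the list gave 1 call among 7 tested, RDH11, at 0.24 ± 0.08 (edgeR, adjusted p = 0.043371), which passed in 1 of 8 alternatives. UTYKO gave 0 of 8 with edgeR, where 1 had an unadjusted p under 0.05. Of all genes 4.58% passed in H9 UTXKO, 12.5% in SEES3 UTXKO and 0.606% in UTYKO.

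Of the 8 receptor partners and cofactors, 7 were tested in undifferentiated cells and 5 rose in DKO and 0 fell, against the same 46.9% of all genes. NRIP1, a corepressor that liganded receptors recruit and whose gene retinoic acid itself induces, had 90.4 and 88.4 CPM in DKO, against 28.5 and 27.6 CPM in WT (1.62 ± 0.09, edgeR, adjusted p = 7.7963e-13), with 28.9 and 23.96 CPM in UTXKO. RXRA, an RXR partner of the receptors, had 76.9 and 88.6 CPM in DKO, against 54.7 and 54.9 CPM in WT (0.54 ± 0.08, edgeR, adjusted p = 1.6815e-05). UTYKO_ctrl, the other control, had 64.9 to 84.0 CPM of RXRA, which overlapped DKO, and the controls were not compared by test. NCOA2, a coactivator, rose in DKO against WT by 0.51 ± 0.07 on the log2 scale (edgeR, adjusted p = 6.7276e-06). NRIP1 was also the 1 of 8 called in Ecto DKO, with 179 and 202 TPM in DKO, 68.7 and 90.3 TPM in XKO, 43.0 TPM in both YKO libraries, and 47.5 and 36.5 TPM in WT (2.16 ± 0.20, limma, adjusted p = 8.149e-04). Endo and Meso DKO gave 0 of 8 with limma, where 2 and 5 had an unadjusted p under 0.05. Of all genes 8.03% passed in Ecto DKO, 12.1% in Endo DKO and 10.1% in Meso DKO.

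In UTXKO 1 of 7 tested cofactors was called, the coactivator NCOA3, which fell by 0.38 ± 0.11 on the log2 scale (edgeR, adjusted p = 0.018723) and passed in 4 of 8 alternatives. It was not among the 5 called in DKO. Of all genes 12.5% passed in UTXKO.

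Genes known to respond to retinoic acid were tested in small numbers, since most of the 21 were too low in undifferentiated cells. In DKO 4 of 9 tested rose and 3 fell, again against 46.9% of all genes. The orphan receptors NR2F1 and NR2F2 and the homeobox gene MEIS2, all induced by retinoic acid in stem cells, were at or near 0 in WT and clearly detected in DKO. NR2F1 had 24.7 and 29.2 CPM in DKO (222 and 230 counts) and 0 counts in both WT libraries. NR2F2 had 9.998 and 10.8 CPM in DKO (90 and 85 counts) and 1 and 0 counts in WT, and MEIS2 had 29.9 and 28.2 CPM in DKO (269 and 222 counts) and 2 and 3 counts in WT. NR2F1 was at least 157-fold higher in DKO, taking 3 counts over both WT libraries as the floor, and the pooled ratio for NR2F2 was 183 (95% interval of 32.3 to 7253, exact, counting error only). MEIS2 had a log2 fold change of 6.55 ± 0.27 (edgeR, adjusted p = 1.2088e-14). HOXB1 and HOXB2, which retinoic acid also induces, were lower, with 1 count in DKO against 25 in WT for HOXB1 (pooled ratio of WT over DKO 23.96, 95% interval 3.92 to 984) and 2 against 62 for HOXB2 (29.7, 95% interval 7.88 to 251). HOXB2 was also the 1 of 4 tested genes called in UTXKO, where 12.5% of all genes passed. It fell there by 1.22 ± 0.37 on the log2 scale, with 10 and 10 counts, against 24 and 38 counts in WT (edgeR, adjusted p = 0.02569). UTYKO gave 0 of 6 with edgeR, where 3 had an unadjusted p under 0.05, and H9 0 of 3 with limma, where 1 did. Of all genes 0.606% passed in UTYKO and 4.58% in H9 UTXKO.

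In all 3 layers NR2F1 and NR2F2 were among the calls in DKO, 2 of 10 tested genes higher in Endo, 4 higher and 1 lower of 16 in Meso, and 4 of 11 higher in Ecto. Of all genes 12.1% passed in Endo DKO, 10.1% (3.7% lower) in Meso DKO and 8.03% (4.18% higher) in Ecto DKO. NR2F1 had 48.6 and 41.1 TPM in Endo DKO and was listed at 0 in both Endo WT libraries, had 13.1 and 17.9 TPM in Meso DKO and was listed at 0 in both Meso WT libraries, and had 479 and 437 TPM in Ecto DKO, against 9.63 and 1.71 TPM in Ecto WT (6.42 ± 0.55 on the log2(TPM + 1) scale, limma, adjusted p = 6.2477e-04). NR2F2 had 229 and 222 TPM in Ecto DKO, against 18.3 and 13.7 TPM in WT (3.75 ± 0.26, limma, adjusted p = 1.9219e-04). HOXA2, a hindbrain gene with a known retinoic acid response, had 26.8 and 32.6 TPM in Ecto DKO and was listed at 0 in Ecto XKO, YKO and WT. HOXB1 had 115 and 103 TPM in Meso DKO, 12.8 and 18.99 TPM in XKO, 37.1 and 32.4 TPM in YKO, and 24.7 and 30.6 TPM in WT (1.95 ± 0.26, limma, adjusted p = 0.0049901), and passed in 9 of 11 alternatives. The calls of NR2F2 in Endo DKO and NR2F1 in Meso DKO passed in 7 and 10 of 11. The single layer knockouts gave 0 calls in the 3 lists of other pathway genes with limma, where 0 to 4 genes of a list had an unadjusted p under 0.05.

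**Figure D5:**
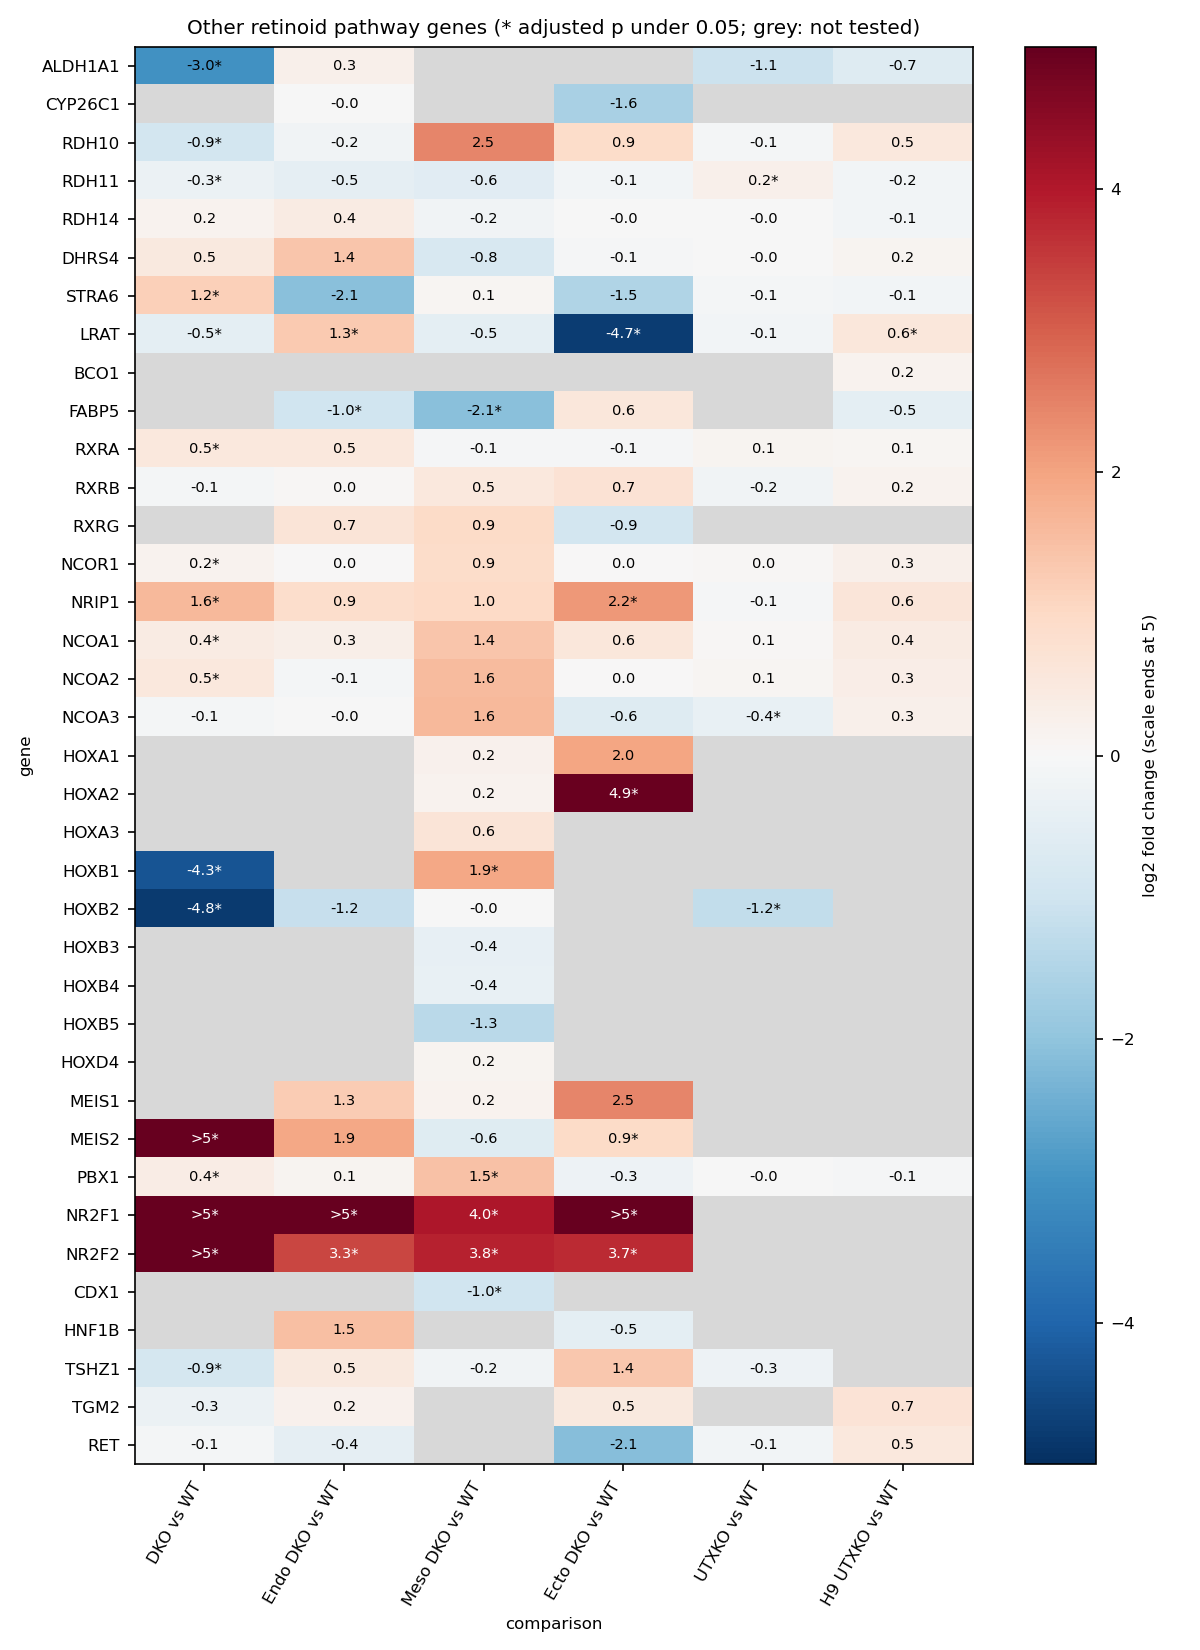
Log2 fold changes of the other pathway genes, by list (retinoid handling, receptor partners and cofactors, retinoic acid responsive genes), in DKO, Endo DKO, Meso DKO, Ecto DKO, UTXKO and H9 UTXKO, each against its WT, with grey for not tested and a star for an adjusted p under 0.05 in edgeR or limma. NR2F1 and NR2F2 are higher in DKO in all 4 settings of SEES3 cells, and LRAT is lower in DKO and Ecto DKO (-0.51 and -4.75) and higher in Endo DKO (1.33).

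Across the 24 layer libraries, which differ in layer and genotype at once and share their tables, the genes whose log2(TPM + 1) followed CYP26A1 most closely were TDRD7, KIT and NFASC (Pearson r of 0.958, 0.953 and 0.951). Among the members, CYP26A1 ran opposite to ALDH1A2 (r = -0.884) and to CRABP2 (r = -0.876), and ALDH1A2 ran with DHRS3 (r = 0.891) and opposite to CRABP1 (r = -0.857). RARG was followed most closely by PCK2, RRAS and PLIN2 (0.920, 0.915 and 0.909), CRABP1 by MYO5C, ARRDC3 and FAM111A (0.928, 0.924 and 0.918), CRABP2 by SPON1, RBBP7 and RCN1 (0.923, 0.914 and 0.904), ALDH1A2 by HAGLR and CDX1 (0.980 and 0.979) and DHRS3 by HHIPL2, URAD and EVX1 (0.920, 0.919 and 0.918). Over the 10 undifferentiated libraries CYP26A1 was followed by USP3, SIX3 and JAM3 (0.993, 0.990 and 0.982) and ALDH1A3 by NDUFB4, TLX1 and PRR15 (0.978, 0.976 and 0.976). These values describe likeness over libraries that fall into few groups.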

How the data were processed

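The submitters' processing notes name STAR, RSEM, featureCounts and edgeR and the builds GRCh38 and hg38, without versions. Per the labels' protocols, libraries were made from polyA RNA with a directional kit. The authors deposited whole-number read counts per gene for undifferentiated SEES3 cells and TPM for the germ layer and H9 tables; how genes were filtered there is not given in the sources used here. No H9 value is 0, and 27.7% to 32.2% of a library's values lie under 5 times its smallest. Some well expressed genes (over 50 TPM on average in the other genotypes) were listed at 0, 1 to 15 of them per layer library. The H9 table held 12 more columns of values that were not used.

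For counts the test was edgeR 4.0.16, quasi-likelihood with filterByExpr and TMM, in each table separately, with DKO against UTXKO fitted in 6 libraries. For TPM it was limma 3.58.1 on log2(TPM + 1) with an intensity trend, for genes at 1 TPM or more in at least 2 libraries, over the 8 libraries of a layer or the 6 of H9, with sets 3 and 4 as 1 group. R was 4.3.3. The log2 scale with a pseudocount understates changes of low genes. P-values were adjusted by Benjamini-Hochberg over all genes tested, with a threshold of 0.05. Log2 values are ± SE, for edgeR the absolute log2 fold change over the square root of F. The scripts were tested on simulated data. Library numbers in the TPM tables are names only. No pair of count libraries was a repeat deposit, since those of a group differed at 1.62 (DKO) to 14.99 (UTYKO_ctrl) in chi-square over its degrees of freedom. The labels do not tell separate cultures from repeat preparations, so p-values reflect a spread that may be technical. CPM were computed from the counts, and intervals and floors (3 counts over a group) cover counting error only. Ensembl identifiers were turned into symbols with the reference table (99.7% matched in the count and H9 tables and 99.8% in the layer tables).

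The members and lists were chosen with earlier results of these data known, and some genes of the lists are not reported here. Beside the members, the text names up to 3 called genes of each other list per comparison, taking the smallest p among those that average 5 or more (CPM or TPM) in whichever group is higher, and the 3 genes most like each member by Pearson correlation. HOXB1 and HOXB2 in undifferentiated cells and RDH11 and NCOA3 beside their alternatives were described after their values were seen. Alternatives were DESeq2 1.42.0, no filter on low values, the replicate number as a block, a pseudocount of 0.1, each H9 set alone and leaving out each library. A single fit of the 10 undifferentiated libraries and centring each TPM library on its median were added after seeing the data.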

Additional observations from a re-analysis of the deposited data

Results flagged for a closer look

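In H9 UTXKO, 3 members had 1 library of 4 set apart from the other 3 beyond Dixon's critical value for 4 samples. Chance gives that in about 1 of 20 groups where values are normally distributed. ALDH1A3 was highest in library 1 of set 3, at 1.188 TPM, where the other 3 were at 0.022 to 0.039 TPM. Library 1 of set 4 was lowest for RARB, at 0.02601 TPM, and for RARG, at 9.373 TPM. The low values of ALDH1A3 and RARB lie under 5 times the smallest H9 values (0.0112 TPM), where that rate need not hold.

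Several members lay on opposite sides of WT or control in different settings, with every knockout library on one side. None of these differences between settings was tested, since the tables were normalised separately. Of the values below, those past the threshold with edgeR or limma were CRABP2 in UTXKO and H9 UTXKO, CYP26A1 in Ecto YKO, CYP26A1, CRABP1 and CRABP2 in undifferentiated DKO and Ecto DKO, CRABP1 in Endo DKO, CRABP2 in Meso DKO and RARB in Ecto DKO. The others did not pass, those of RARA included. Without UTX, CRABP1 was lower in UTXKO (log2 difference -0.22), H9 UTXKO (-0.67) and Endo XKO (-0.32) and higher in Ecto XKO (0.75), and CRABP2 was lower in UTXKO (-0.72), H9 UTXKO (-0.91) and Endo XKO (-1.12) and higher in Ecto XKO (0.88). The H9 cells also had little UTY, at most 0.644 TPM. Without UTY, CYP26A1 was higher in UTYKO (1.20) and lower in Endo YKO (-0.36) and Ecto YKO (-3.50), RARA was lower in Endo YKO (-0.22) and higher in Meso YKO (0.46), and CRABP2 was lower in Endo YKO (-0.85) and higher in Meso YKO (0.50) and Ecto YKO (0.61).

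Where both genes were lost, CYP26A1 was higher in undifferentiated DKO (1.78) and lower in Endo DKO (-0.25) and Ecto DKO (-1.76). CRABP1 was lower in undifferentiated DKO (-0.47) and Endo DKO (-1.47) and higher in Meso DKO (1.76) and Ecto DKO (3.30). CRABP2 was higher in undifferentiated DKO (0.28) and Ecto DKO (1.35) and lower in Endo DKO (-1.26) and Meso DKO (-0.73). RARA was lower in undifferentiated DKO (-0.29) and higher in Endo DKO (0.21), and RARB was lower in Meso DKO (-1.26) and higher in Ecto DKO (3.62, against WT libraries listed at 0).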

How the results depend on the processing

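Of the 36 member results past the threshold, 110 of 123 values under alternatives other than leaving out a library stayed past it, and 198 of 244 values with 1 library left out. None changed direction. Of 26 member results at an unadjusted p under 0.05 only, 83 of 90 and 159 of 172 values stayed short of it. The number of members called in UTYKO against UTYKO_ctrl, 0 with edgeR, was 1 with no low-count filter, 2 with the replicate block and 2 in the joint fit of 10 libraries (CYP26A1 and, in the last pair, DHRS3). It was 3 in place of 5 in DKO against WT in the joint fit, 3 in place of 5 in DKO against UTXKO with DESeq2, and 0 in place of 1 in H9 with set 3 alone and 0 with set 4 alone, where fewer libraries enter. Otherwise the cause was not tested. With 1 library left out the number ranged from 0 to 2 in UTYKO, 3 to 3 in UTXKO, 5 to 6 in DKO, 4 to 5 in DKO against UTXKO, 0 to 2 in H9, 2 to 3 in Endo DKO, 1 to 3 in Endo DKO against the single knockouts, 0 to 0 in Endo XKO and YKO and Meso XKO, 0 to 1 in Meso YKO, 1 to 3 in Meso DKO, 2 to 4 in Meso DKO against the single knockouts, 0 to 1 in Ecto XKO, 0 to 1 in Ecto YKO, 3 to 5 in Ecto DKO and 3 to 4 in Ecto DKO against the single knockouts. The lone library of a group was then assumed to vary like the others.

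With the replicate block, the log2 difference of CRABP1 in UTXKO was -0.22 (adjusted p = 0.0408), that of DHRS3 in DKO -0.33 (adjusted p = 0.0464), and in UTYKO those of CYP26A1 1.19 (adjusted p = 0.00756) and DHRS3 -0.88 (adjusted p = 5.55e-04), all calls gained in edgeR, and no member call was lost. Same-numbered libraries deviated together with a correlation of 0.036, 0.327, 0.022 and 0.081 in the 4 count comparisons, and 2 pairs do not show that the numbers pair the libraries. No paired analysis was possible for the TPM tables because their columns carry no replicate number that the labels tie across genotypes. Of all genes, those called numbered 1727 in UTXKO but 430 with DESeq2, 433 in the joint fit, 2254 with the block and 923 to 1654 with a library left out, 89 in UTYKO but 47, 213, 376 and 30 to 1050, with 173 without the filter, 6866 in DKO but 3701 with DESeq2, and 5052 in DKO against UTXKO but 2786 with DESeq2 and 3160 in the joint fit. H9 had 785 but 507 without the filter, 51 with set 3, 94 with set 4 and 112 to 474 with a library left out. Leaving out a library gave 691 to 2174 in Endo DKO (1896 with all), 290 to 1980 in Meso DKO (1523), 467 to 1329 in Ecto DKO (1240), and against the single knockouts 705 to 2220 (2113), 1350 to 6749 (5642) and 359 to 1191 (1142). In Endo XKO it gave 1 to 10 (5, with 8 without the filter and 2 once centred), in Endo YKO 1 to 190 (4, with 2 at a pseudocount of 0.1), in Meso XKO 0 to 4 (6, with 2 without the filter), in Meso YKO 1 to 2831 (2), in Ecto XKO 0 to 58 (55) and in Ecto YKO 0 to 8 (13, with 32 at a pseudocount of 0.1). The unknown depth of the TPM tables limits what values listed at 0 can show.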
